A study of Mus musculus with 92 samples.

Results

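Livers of 6-month-old male HET3 mice fed the Low Amino Acid diet (7 libraries) were compared with livers of males of the same age fed the Control diet (8 libraries), which together are 15 of the 92 libraries of the series. The members were chosen by sex, age and diet in the sample labels, with no measured value. HET3 mice are genetically heterogeneous animals bred from several inbred strains and carry no engineered allele in the labels. The diet began at 9 weeks of age per the labels, although the series' design text gives a shorter time on the diets. All mice were fasted for 16 h before the liver was taken, so every value below is that of a fasted liver. The other groups of the series are females, males and females killed at 24 months whose diets began at 6 months of age, and a Low Isoleucine diet at each age. The titles give each library a number with a letter, and the labels do not say what a shared number marks. The 7 Low Amino Acid libraries carry 4 numbers, shared by replicates 1 and 7, by 2 and 4 and by 5 and 6, and the 8 Control libraries carry 5, shared by replicates 3, 6 and 8 and by 4 and 5. No number occurs in both groups. The p-values measure the spread between libraries and are too small if libraries with a shared number are not independent, so a fit on counts summed over each number is given beside the totals.

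The Low Amino Acid diet lowers all dietary amino acids together, and the study set it beside a diet low in isoleucine alone. Mammalian cells read amino acid supply through at least a pair of systems. The kinase GCN2 (Eif2ak4) binds uncharged transfer RNA and raises translation of the factor ATF4, which switches on amino acid synthesis and transport genes such as Asns and, in liver, the hormone Fgf21. The kinase complex mTORC1 responds to amino acids at the lysosome and controls translation and autophagy. Liver also carries a programme of sex-biased genes set by the pulse pattern of growth hormone, acting through the factor Stat5b.

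The fold changes and p-values are the authors' estimates, from their comparison table of the male livers, which lists 17757 genes. A positive log2 fold change means higher on Low Amino Acid, and a gene is called changed at a Benjamini-Hochberg adjusted p under 0.05 over all genes. The levels per library are estimated counts per 1e+06 counts of a library (CPM), scaled by trimmed mean of M-values (TMM). The male columns of the count table do not line up with the gene names printed beside them. They were therefore matched to genes by order and level first. Levels given below are the lowest, the median and the highest of 7 Low Amino Acid and 8 Control libraries. Most genes named below were picked by p or fold change in largely these libraries. A lack of overlap between the groups is therefore a description and no added support.

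A family of repeat-like transcripts was the largest difference between the groups, and its sequence is shown because its level set every Low Amino Acid library apart from every Control library. The first 120 bases of the Gm10800 transcript (GRCm38, chromosome 2, minus strand) carry in capitals a 25-base stretch that 13 genes of the table hold.

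Gm10800: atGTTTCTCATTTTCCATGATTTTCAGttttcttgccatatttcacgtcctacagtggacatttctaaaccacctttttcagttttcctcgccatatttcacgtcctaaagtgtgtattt

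The opening word of that stretch occurs 3 times in the 660-base transcript. To textbook knowledge these letters are those of the mouse major satellite, the tandem repeat of chromatin next to the centromere; no repeat annotation was compared here. Of the 13 genes, 10 lie on chromosome 9, 2 on chromosome 2 and 1 on chromosome 14. They were found after their values were seen, by searching for words of 25 bases shared with Gm10800, Gm10801 or Gm10718, which made up at least 24.7% of the words of each. Counting software can divide reads between such near copies, so the level of any single one is uncertain, and the sum over the family is the firmer value.

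A second set of sequences is shown because histone genes were among the furthest falls, although its exact letters were not found in every histone gene. Most messages of replication-dependent histones end in a stem-loop instead of a poly(A) tail, and the libraries were made with poly(A) selection per the labels' protocols. The stem-loop is in capitals in the transcripts of H2ac19 on chromosome 3 and of H2bc12 and H3c6 on chromosome 13 (GRCm38), which encode the core histones H2A, H2B and H3.

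H2ac19: aaaaGGCTCTTTTCAGAGCCaccc

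H2bc12: caaaGGCTCTTTTAAGAGCCacta

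H3c6: aaacGGCTCTTTTAAGAGCCacct

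The motif GGCTCTTTTNAGAGCC, a stem of 6 bases around a loop of 4, was taken from the histone transcripts as the stem and loop that occurs in the highest number of them. Searched on the transcript strand, it was found in 13 of 29 histone genes of the table (44.8%) and in 2 of 17670 other genes (0.0113%). None of the H4 genes named below held it. A match is a description of the letters only. Stems of other letters were not counted, so a gene without a match may still hold a stem-loop.

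The libraries differed in ways that bear on every result below. The 12 repeat-family genes with matched levels summed to 855, 1520, 2560, 1900, 2310, 2610 and 1090 CPM in Low Amino Acid replicates 1 to 7, against 2.61 to 4.95 CPM in the 8 Control libraries. No Low Amino Acid library came near the Control range. In Low Isoleucine males of 6 months the sum was 2180 to 3640 CPM in replicates 2, 3, 5 and 6, but 5.13, 5.24 and 4.5 CPM in replicates 1, 4 and 7, and at 24 months it was 98.3 to 718 CPM in Control livers themselves. The fold changes of the authors' deposited table were reproduced from 39 of the 45 male libraries. Those 3 Low Isoleucine libraries, Low Amino Acid replicate 7 and 24-month Low Amino Acid replicates 4 and 5 were not among them. Library totals were 25.4 to 36 M (1e+06) estimated counts in Low Amino Acid and 23.4 to 39.7 M in Control livers, so depth did not separate the groups. The 10 most abundant genes took 39.1% of the counts of Low Amino Acid replicate 7 and 32.6% of Control replicate 5, which also had low TMM factors of 0.798 and 0.824.

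**Figure D1:**
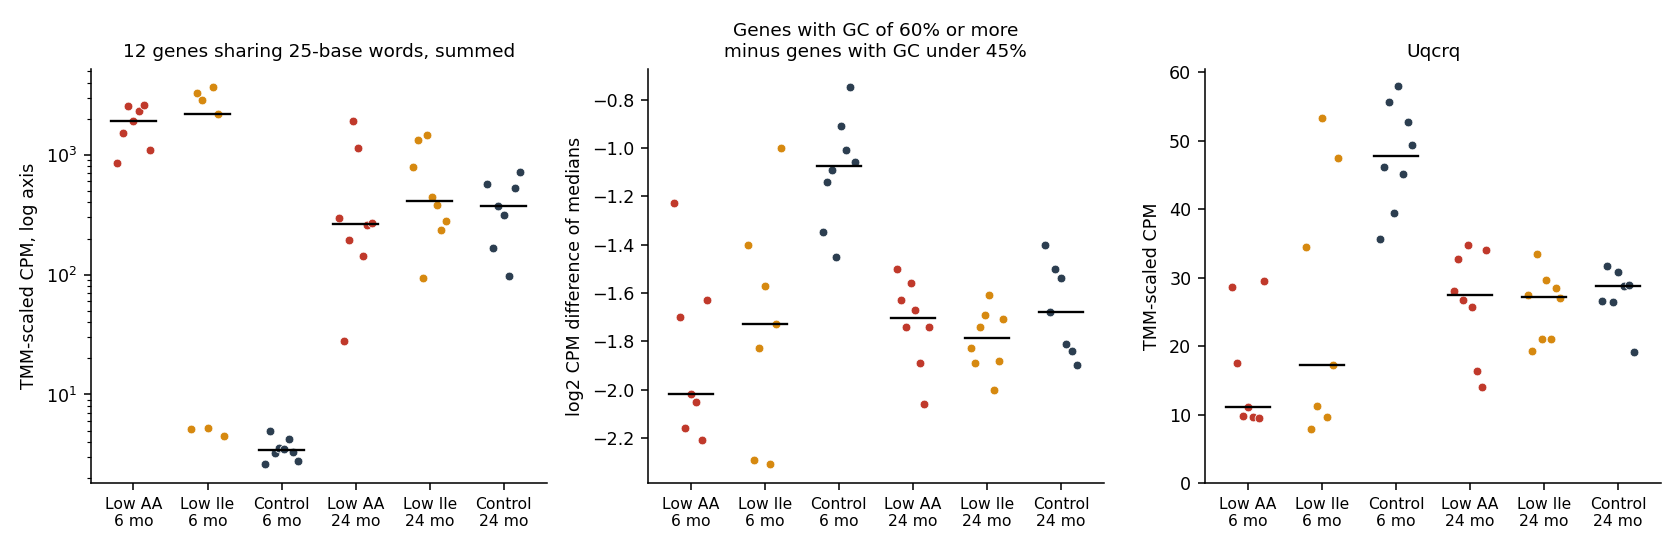
Values per male library by diet and age. The left panel shows the summed TMM-scaled CPM of the 12 repeat-family genes on a log axis, the middle panel the median log2 CPM of 473 genes with GC of 60% or more minus that of 3601 genes with GC under 45%, and the right panel Uqcrq in TMM-scaled CPM; points are libraries and bars group medians. At 6 months all 7 Low Amino Acid libraries lie above all 8 Control libraries in the left panel and below them in the right panel, while 3 Low Isoleucine libraries lie with Control in the left panel.

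Base composition moved with the diet as well. The median log2 CPM of genes with a GC content of 60% or more, less that of genes under 45%, was −1.23, −1.70, −2.16, −2.02, −2.05, −2.21 and −1.63 in Low Amino Acid replicates 1 to 7, against −1.45 to −0.75 in Control livers. Only Low Amino Acid replicate 1 lay inside the Control range. In Low Isoleucine replicates 1, 4 and 7 it was −1.57 or higher, against −2.31 to −1.73 in the other 4. This property of the libraries and the diet cannot be told apart at 6 months in males, since no Low Amino Acid library has the Control level of the repeat family. The main gene groups below are therefore also given from a count fit with a correction for GC per library, chosen after seeing the data (edgeR's quasi-likelihood test on all 45 male libraries, called the GC-corrected fit).

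Low Amino Acid livers had more genes lower than higher. In the authors' deposited table, 948 of 17757 genes were higher, 5.34% of those tested, and 1954 were lower, 11.0%. The shifts were mostly small, with a median log2 fold change in the authors' deposited table of 0.44 among the higher genes and −0.62 among the lower ones. Changes of at least 1 on the log2 scale numbered 160 higher and 363 lower genes in the authors' deposited table. Of 17149 genes with matched counts, edgeR's quasi-likelihood test on all 45 male libraries called 601 higher (3.50%) and 1771 lower (10.3%). The deposited table and edgeR both called 2210 genes in the same direction and 0 in opposite ones. These are out of 2855 genes called in the authors' deposited table and testable with edgeR. Agreement in direction was largely fixed in advance, here and on the summed counts below. The libraries are largely the same, and only count lines within 0.02 of the deposited fold changes were kept. The GC-corrected fit called 237 higher (1.39%) and 397 lower (2.32%) of 17095 genes. It kept the direction and the call for 454 of the 2854 deposited calls it could test and called 10 in the opposite direction. With counts summed over libraries that share a title number, edgeR called 178 higher and 841 lower genes, which kept 1007 of 2855 deposited calls and turned 0. Among the leading genes followed through every fit, Rpph1 (adjusted p = 0.2) and Atf4 (adjusted p = 0.139) passed in edgeR on all libraries and not on the summed counts.

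**Figure D2:**
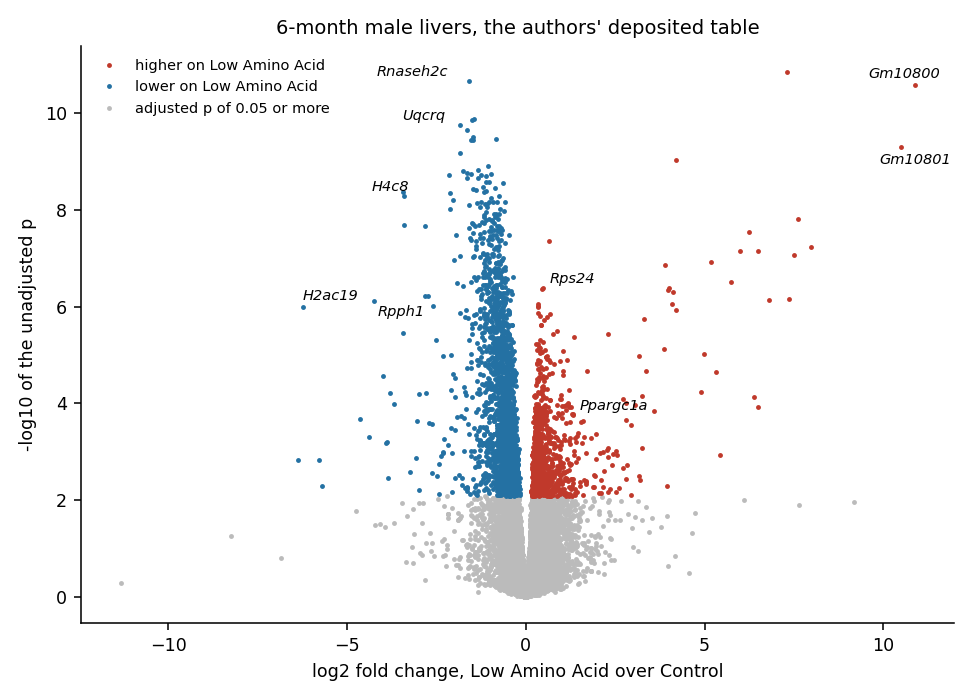
Each point is 1 of 17757 genes in the authors' deposited table for 6-month males. The horizontal axis is the log2 fold change of Low Amino Acid over Control and the vertical axis the −log10 of the unadjusted p; the 948 higher and 1954 lower genes are coloured. The repeat-like genes lie far to the right, up to 10.88, and the histone genes far to the left, down to −6.23.

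The 13 repeat-family genes were all higher, with log2 fold changes of 5.19 to 10.88 in the authors' deposited table. Gm10800 had 396, 855 and 1240 CPM (lowest, median and highest) in Low Amino Acid livers, against 0.228, 0.412 and 1.48 CPM in Control livers. The groups did not overlap. In the authors' deposited table its log2 fold change was 10.88 with an adjusted p of 1.59e-07, and 10.37 with an adjusted p of 3.8e-06 in the GC-corrected fit. Gm10801, its neighbour on chromosome 2, had 256, 598 and 900 CPM in Low Amino Acid livers, against 0.163, 0.423 and 0.863 CPM in Control livers. The long noncoding ENSMUSG00000097312 on chromosome 9 had 112, 242 and 266 CPM in Low Amino Acid livers, against 0.916, 1.39 and 1.63 CPM in Control livers, with a log2 fold change of 7.30 in the authors' deposited table. None of these genes has a known role in liver metabolism.

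Protein-coding genes with the largest rises, leaving out predicted gene models, ranged from a repeat-family gene to an olfactory receptor. The authors' deposited table gave log2 fold changes of 7.60 for ENSMUSG00000095280, itself one of the repeat family, and 5.32 for Ubtfl1, which in mouse embryos acts before implantation. Others were ENSMUSG00000079620 (3.98), Pagr1b (3.96), the imprinted gene Usp29 (3.88), Duxf3 (3.58), the ephrin receptor Epha5 (3.37), the potassium channel partner Dpp10 (3.30) and the olfactory receptor Or10ag54 (3.24), all from the authors' deposited table. Dpp10 was at a low level, with 0.0915, 0.279 and 0.573 CPM in Low Amino Acid livers, against 0, 0.0272 and 0.0399 CPM in Control livers. The groups did not overlap, yet the lowest Low Amino Acid values stood under 0.1 CPM. Most of these genes have no matched count line, so their levels per library are not given.

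Genes of other types rose by as much. After ENSMUSG00000097312 the authors' deposited table put Gm10108 (6.49), Gm37985 (6.00), Gm12435 (5.44) and AI507597 (4.98). Gm37985 had 0.148, 1.33 and 2.07 CPM in Low Amino Acid livers and was at 0 in 7 of 8 Control libraries. By class, the authors' deposited table had 35 of 563 long intergenic noncoding RNAs higher (6.22%) and 8 lower (1.42%). The higher share was near that of all genes (5.34%), and the lower share was under it (11.0%). In the GC-corrected fit 7 of the 563 were higher and 2 lower, against 1.39% and 2.32% of all genes. Of the deposited calls in this class, 7 were kept. Among protein-coding genes the balance ran the other way, where the authors' deposited table had 717 of 13670 higher (5.25%) and 1861 lower (13.6%).

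Rps24 and Odf2l were among the named rises with the smallest p, with smaller fold changes. Rps24, a protein of the small ribosomal subunit, had 119, 149 and 173 CPM in Low Amino Acid livers, against 98, 105 and 134 CPM in Control livers, and the authors' deposited table gave a log2 fold change of 0.48 (adjusted p = 3.29e-05). The ranges overlapped. Odf2l, a regulator of cilium formation, had 12.7, 14.8 and 16 CPM in Low Amino Acid livers, against 9.41, 10.7 and 11.2 CPM in Control livers, with no overlap. Its log2 fold change was 0.47 in the authors' deposited table, and it passed the GC-corrected fit too (0.32, adjusted p = 0.03).

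Most histone genes were lower. Of 29 replication-dependent histone genes in the authors' deposited table, 19 were lower and 0 higher, against 11.0% and 5.34% of all genes. Their median log2 fold change was −2.09, against 0.05 for all genes. The other 10 did not pass, and 3 of them had positive values, H3c14 (3.26, adjusted p = 0.109), H2bc21 (0.56, adjusted p = 0.0935) and H2bc18 (0.29, adjusted p = 0.678) in the authors' deposited table. This class was drawn up after values were seen. H2ac19 was at 0 in 3 of 7 Low Amino Acid libraries and had at most 2.26 CPM in the others, against 2.38 to 12.4 CPM in Control livers. The ranges did not overlap, but Low Amino Acid replicates 1 and 7, at 1.16 and 2.26 CPM, came close to Control. Its log2 fold change of −6.23 was the largest fall among named protein-coding genes of the authors' deposited table, a fitted value that depends on how libraries at 0 are treated. It was −3.49 with edgeR on all libraries, −4.56 to −3.19 with single libraries left out and −2.75 in the GC-corrected fit, and passed in each. H4c8, a histone H4 gene, had 0.189, 0.482 and 1.97 CPM in Low Amino Acid livers, against 2.45, 6.19 and 11.7 CPM in Control livers. H4c4 had 0.228, 0.785 and 4.18 CPM in Low Amino Acid livers, against 3.66, 9.72 and 19.2 CPM in Control livers. Here Low Amino Acid replicates 1 and 7 lay inside the Control range. Further histone genes near the bottom of the authors' deposited table were H4c2 (−3.88), H2bc12 (−3.69), H4c3 (−3.40), H3c6 (−3.04) and H4c1 (−2.98). The exact motif given above was found in 8 of the 19 that fell, and stem-loops of other letters were not counted. In the GC-corrected fit 11 histone genes were lower and 0 higher, against 2.32% and 1.39% of all genes.

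Small structural RNAs that carry no usual poly(A) tail showed the same direction. Of 9 in the authors' deposited table, 8 were lower and 0 higher, against 11.0% and 5.34% of all genes. Their median log2 fold change there was −1.80, while the GC-corrected fit kept Rmrp and Rn7sk alone. Rmrp, the RNA of the mitochondrial RNA processing endoribonuclease, had 22.2, 32.6 and 74.7 CPM in Low Amino Acid livers, against 94.1, 140 and 357 CPM in Control livers, with no overlap. Rn7sk, which holds back transcription elongation, had 2030, 2780 and 5790 CPM in Low Amino Acid livers, against 5250, 7160 and 9120 CPM in Control livers. Rpph1, the RNA of ribonuclease P, had 1940 and 1220 CPM in Low Amino Acid replicates 1 and 7 and 29.9 to 94.9 CPM in the other 5, against 375 to 7070 CPM in Control livers. Those 2 libraries share a title number. Its log2 fold change was −4.25 in the authors' deposited table, which was built without replicate 7. With edgeR on all libraries it was −2.43 (adjusted p = 0.0335), and the call was lost when any of 8 single libraries was left out. All annotated small RNAs together took 3.33% to 8.65% of the counts of Low Amino Acid libraries, against 7.77% to 14.6% of Control libraries.

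Rnaseh2c, Mpst, Uqcrq, Elob and Romo1 were the named genes with the smallest p among those that fell. Rnaseh2c, a subunit of the enzyme that clears RNA from DNA, had 1.19, 1.94 and 3.74 CPM in Low Amino Acid livers, against 4.38, 5.36 and 7.78 CPM in Control livers. Mpst, which makes sulfide from a product of cysteine, had 8, 10.2 and 21.7 CPM in Low Amino Acid livers, against 22.8, 29.4 and 41.7 CPM in Control livers. Uqcrq, a subunit of respiratory complex III, had 9.57, 11.1 and 29.5 CPM in Low Amino Acid livers, against 35.7, 47.8 and 58 CPM in Control livers. In all 3 genes the groups did not overlap. Elob, a partner of ubiquitin ligases, and Romo1, a small mitochondrial membrane protein, did not overlap either. The log2 fold changes in the authors' deposited table were −1.58 for Rnaseh2c, −1.46 for Mpst, −1.85 for Uqcrq, −1.51 for Elob and −1.65 for Romo1. All 5 genes were also lower in the GC-corrected fit, at log2 fold changes of −1.53 to −0.68. They were picked by p in largely the same libraries, so their separation and these further calls were largely fixed by that choice. In 24-month males none of the 5 was called in the authors' deposited table, and the level of Uqcrq in 24-month Control livers was 19.1 to 31.7 CPM, under that of every 6-month Control library.

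**Figure D3:**
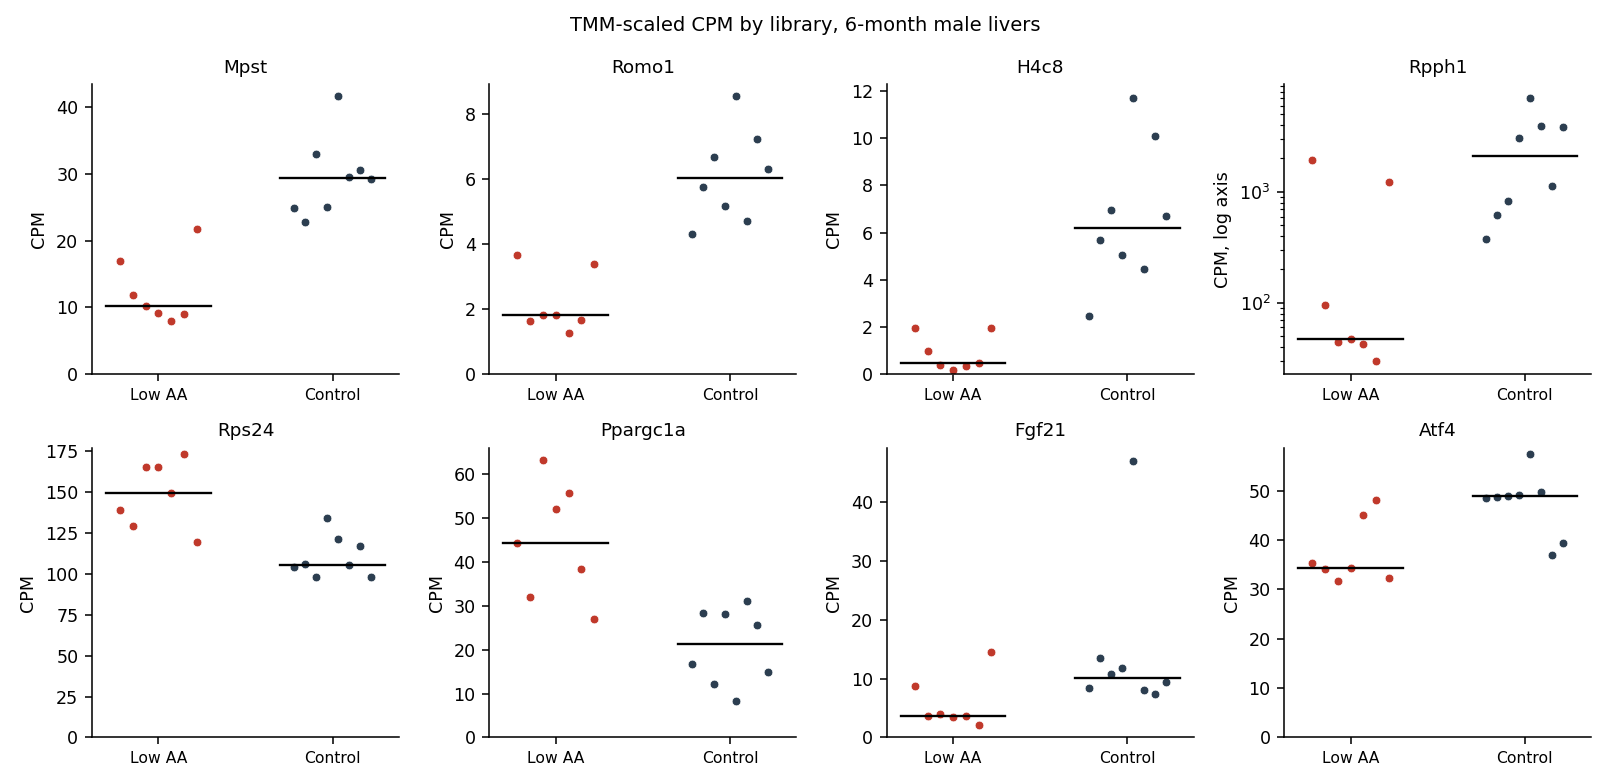
TMM-scaled CPM per library of 8 genes in 6-month males, Low Amino Acid on the left of each panel and Control on the right; points are libraries, bars are medians, and the Rpph1 axis is a log scale. Mpst, Romo1 and H4c8 do not overlap between the groups, Rps24, Ppargc1a, Rpph1, Fgf21 and Atf4 do.

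Il3ra, a receptor chain for interleukin 3, and Erdr1x were the remaining named protein-coding genes among the largest falls, at −3.44 and −3.07 in the authors' deposited table. Of other types, the largest falls were Gm15725 (−5.69), ENSMUSG00000098178 (−4.63), Gm10774 (−4.40), Rpph1 and Mif-ps4 (−4.00), from the authors' deposited table. ENSMUSG00000098178 had 135 CPM in Low Amino Acid replicate 7 and 1.22 to 19.2 CPM in the other 6.

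Both the share of genes called and the direction followed GC content. In the authors' deposited table, 155 of 891 protein-coding genes with GC under 40% were higher (17.4%) and 3 lower (0.337%), with a median log2 fold change of 0.22. At GC of 60% or more, 0 of 485 were higher and 310 lower (63.9%), with a median of −0.79 in the authors' deposited table. The steps between were ordered, with medians of 0.16, 0.08, −0.09 and −0.39 in the authors' deposited table for the bins from 40% to 60% in steps of 5%. Over 13656 protein-coding genes the Spearman correlation of the deposited fold change with GC was −0.60, and with exon length over 13670 genes it was 0.185. These are descriptions across genes, which are not independent. For Low Amino Acid in the authors' deposited tables of other groups the correlation with GC was −0.04 in 24-month males and 0.27 in 6-month females. The GC bins were chosen after values were seen.

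**Figure D4:**
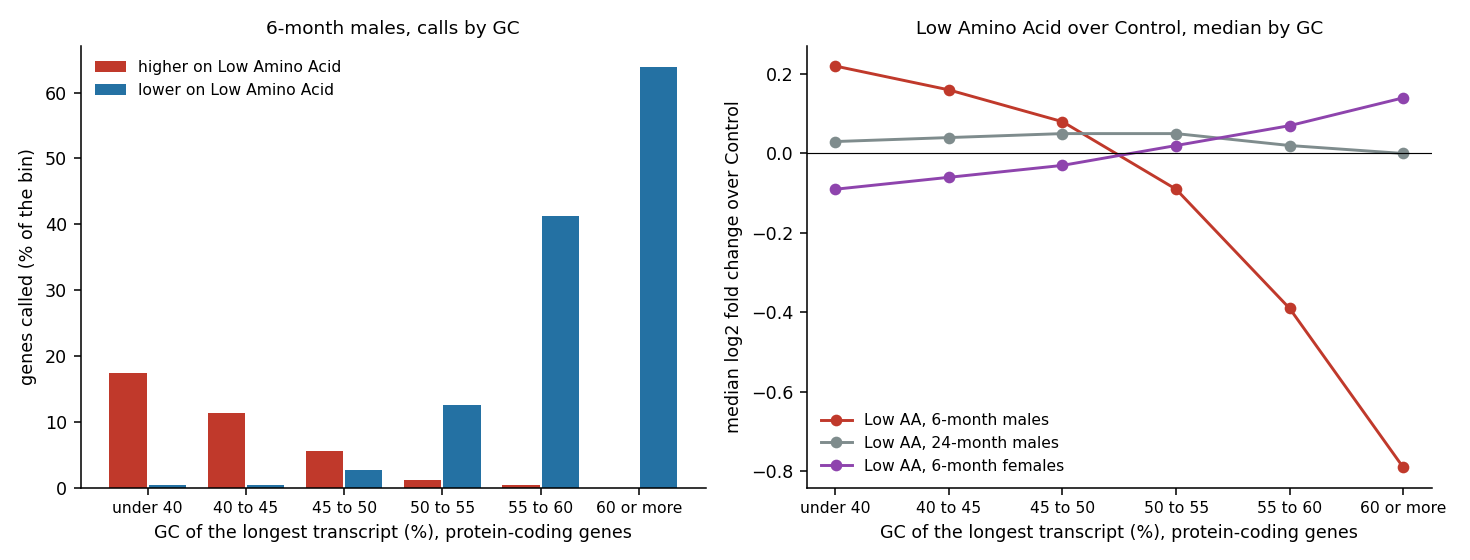
Protein-coding genes of the authors' deposited tables in bins of transcript GC content. The left panel gives the percent of each bin called higher and lower on Low Amino Acid in 6-month males, and the right panel the median log2 fold change of Low Amino Acid over Control in 6-month males, 24-month males and 6-month females. In 6-month males the lower calls reach 63.9% of the bin with the highest GC and the median falls to −0.79, while the 24-month male medians stay within 0.05 of 0.

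Genes of the integrated stress response, which answers amino acid shortage among other stresses, did not move as a block. Of 31 genes of the integrated stress response, 3 were higher and 6 lower, with a median log2 fold change of −0.11 in the authors' deposited table, against 5.34% and 11.0% of all genes. In the GC-corrected fit 1 was higher and 2 lower. The 15 amino acid supply targets among the 31 had 2 higher and 2 lower, with a median of 0.20 in the authors' deposited table. The 7 sensors and factors had 0 higher and 2 lower there, and the 9 growth and stress targets 1 higher and 2 lower. Both of these parts had a median of −0.30. Atf4, the central factor, had 31.6, 34.3 and 48.2 CPM in Low Amino Acid livers, against 37, 48.9 and 57.4 CPM in Control livers, and the ranges overlapped. It fell by 0.31 on the log2 scale in the authors' deposited table (adjusted p = 0.0385). With edgeR on all libraries the fall was 0.35 (adjusted p = 0.017), the call was lost without Control replicate 5 (0.0501) or Low Amino Acid replicate 3 (0.0564), and with the GC correction it was 0.07 (0.83). ATF4 is controlled mainly in translation, which these data do not measure.

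Asns, the asparagine synthetase that ATF4 induces, had 0.738, 1.77 and 2.9 CPM in Low Amino Acid livers, against 0.16, 0.61 and 4.94 CPM in Control livers. The log2 fold change of 1.39 in the authors' deposited table did not pass the test (adjusted p = 0.267). Fgf21, the fasting and protein-restriction hormone, had 2.08, 3.62 and 14.5 CPM in Low Amino Acid livers, against 7.37, 10.1 and 46.9 CPM in Control livers. Its log2 fold change of −1.56 in the authors' deposited table did not pass either (adjusted p = 0.202), and passed with edgeR only when Low Amino Acid replicate 7, its highest library, was left out (adjusted p = 0.0454, against 0.121 with all libraries). The target Psat1, of serine synthesis, rose by 1.68 in the authors' deposited table and by 1.66 in the GC-corrected fit. Slc7a11, the cystine transporter (2.62), and Vldlr, a lipoprotein receptor (1.69), were also higher in the authors' deposited table. Psph, the last enzyme of serine synthesis (−0.80), Shmt2 (−0.79), Atf5 (−0.69), Eif4ebp1 (−0.48) and the stress hormone Gdf15 (−1.64) were lower in the authors' deposited table.

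Enzymes that charge transfer RNA, many of them ATF4 targets, fell or did not pass. Of 20 cytosolic aminoacyl-tRNA synthetases, 7 were lower and 0 higher in the authors' deposited table, against 11.0% and 5.34% of all genes, with a median log2 fold change of −0.04. Farsa, of the phenylalanine enzyme, had 8.94, 10.2 and 11 CPM in Low Amino Acid livers, against 12.7, 14.1 and 16.3 CPM in Control livers, with no overlap. It was lower by 0.48 in the authors' deposited table and was the only synthetase lower in the GC-corrected fit. Vars (−0.75), Mars (−0.39) and Sars (−0.28) followed in the authors' deposited table.

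Genes of amino acid breakdown were called about as often as all genes. Of 35 catabolic enzymes, 4 were lower and 0 higher in the authors' deposited table, against 11.0% and 5.34% of all genes, and 1 was lower in the GC-corrected fit. The 4 were Prodh2, of hydroxyproline breakdown (−1.12), Ftcd, of histidine breakdown (−0.70), Gnmt, which uses S-adenosylmethionine (−0.60), and the alanine transaminase Gpt (−0.40), in the authors' deposited table. Of 10 urea cycle genes only Nags, which makes the activator of the cycle, was lower in the authors' deposited table, at −0.80, and 0 in the GC-corrected fit. Of 24 genes of branched-chain amino acid catabolism, 2 were lower and 0 higher in the authors' deposited table. Bckdha, the catalytic subunit of the branched-chain ketoacid dehydrogenase, had 51.6, 70.9 and 135 CPM in Low Amino Acid livers, against 159, 168 and 199 CPM in Control livers, with no overlap. Its log2 fold change was −1.22 in the authors' deposited table and −0.63 (adjusted p = 0.00981) in the GC-corrected fit. Ivd, of leucine breakdown, was at −0.42 in the authors' deposited table.

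The lists of lipid genes held few calls, against 11.0% lower and 5.34% higher of all genes. Of 22 genes of fatty acid and triglyceride synthesis, the authors' deposited table had 1 higher and 1 lower, and the GC-corrected fit 3 higher (Acaca, Acly and Pnpla3) and 0 lower. Acaca, the acetyl-CoA carboxylase, had 89.1, 105 and 124 CPM in Low Amino Acid livers, against 63.6, 76 and 90.5 CPM in Control livers, a rise of 0.48 in the authors' deposited table and of 0.41 in the GC-corrected fit (adjusted p = 0.0232). The factor Nr1h3 fell by 0.41 in the authors' deposited table. Srebf1 (−0.15, adjusted p = 0.781) and Fasn (−0.16, adjusted p = 0.746) did not pass in the authors' deposited table, and both had a positive value of 0.25 with the GC correction. Of 25 cholesterol synthesis genes, 0 were higher and 2 lower, the sterol sensor partner Scap (−0.72) and the sterol reductase Tm7sf2 (−0.56), although the median of the list was 0.31, in the authors' deposited table. Of 34 genes of fatty acid oxidation and ketogenesis, 1 was higher and 2 lower, Acads (−1.03) and Etfb (−0.43), with a median of −0.17 in the authors' deposited table. No cholesterol synthesis or fatty acid oxidation gene passed in the GC-corrected fit.

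The gene that was higher in that list was Ppargc1a, the coactivator that drives mitochondrial and gluconeogenic genes in fasting. It had 27, 44.4 and 63.3 CPM in Low Amino Acid livers, against 8.33, 21.2 and 31.1 CPM in Control livers. The ranges overlapped through Low Amino Acid replicate 7 at 27 CPM, and replicate 2 at 32 CPM lay just above the highest Control library. In the authors' deposited table the log2 fold change was 1.29 with an adjusted p of 0.00275. It was 1.10 ± 0.309 (SE, adjusted p = 0.0123) with edgeR, and with the GC correction 0.93 (adjusted p = 0.0726), which did not pass. Of 18 genes of mitochondrial biogenesis, Gabpa (0.21) was higher too, while Polrmt (−1.35), the mitochondrial RNA polymerase, Esrra (−1.24), a partner of Ppargc1a, and Polg (−0.42) were lower in the authors' deposited table. These 3 were also lower in the GC-corrected fit, and Polrmt and Polg did not overlap between the groups.

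Respiratory chain genes of the nucleus fell or did not pass. Of 76 oxidative phosphorylation genes, 22 were lower and 0 higher in the authors' deposited table, against 11.0% and 5.34% of all genes, with a median log2 fold change of −0.11. In the GC-corrected fit 12 of these 22 and no other member were lower, against 2.32% of all genes. Complex I had 12 of 38 lower, complex III 4 of 9, complex IV 3 of 10 and ATP synthase 3 of 15 in the authors' deposited table, while 0 of 4 complex II genes passed. Uqcr11 of complex III had 15.2, 20.2 and 40.1 CPM in Low Amino Acid livers, against 50.5, 57.7 and 74.3 CPM in Control livers. Ndufa7 of complex I had 16.6, 18.3 and 22.9 CPM in Low Amino Acid livers, against 29, 32.9 and 38.6 CPM in Control livers. Neither gene overlapped between the groups. Both stayed lower in the GC-corrected fit, at −0.72 and −0.83. Of 15 mitochondrially encoded genes, mt-Nd1 was higher (0.48) and mt-Nd3 lower (−0.98), with a median of 0.27 in the authors' deposited table.

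Cytosolic ribosomal protein genes split. Of 79, 18 were higher and 20 lower, with a median of −0.02 in the authors' deposited table, against 5.34% and 11.0% of all genes. In the GC-corrected fit 13 were higher and 6 lower, against 1.39% and 2.32% of all genes. Rpl36 had 4.23, 5.97 and 17.8 CPM in Low Amino Acid livers, against 20, 29.3 and 39.5 CPM in Control livers, with no overlap. Rplp1, a stalk protein, had 11.6, 16.4 and 62.6 CPM in Low Amino Acid livers, against 62.1, 77.1 and 103 CPM in Control livers. They fell by 2.11 and 1.96 in the authors' deposited table. Among those that rose were Rps6 (0.40) and Rpl23 (0.43), beside Rps24, in the authors' deposited table. Of 30 translation factors, 4 were higher and 4 lower, with Eef1a1 at 0.31 and Eef2 at −0.66 in the authors' deposited table. Of 31 proteasome genes, 4 were lower, with Psmb5 at −0.68, and of 20 endoplasmic reticulum chaperones only Hyou1 (−0.67), in the authors' deposited table. The GC-corrected fit called 2 translation factors higher and 0 genes of the other 2 lists.

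**Figure D5:**
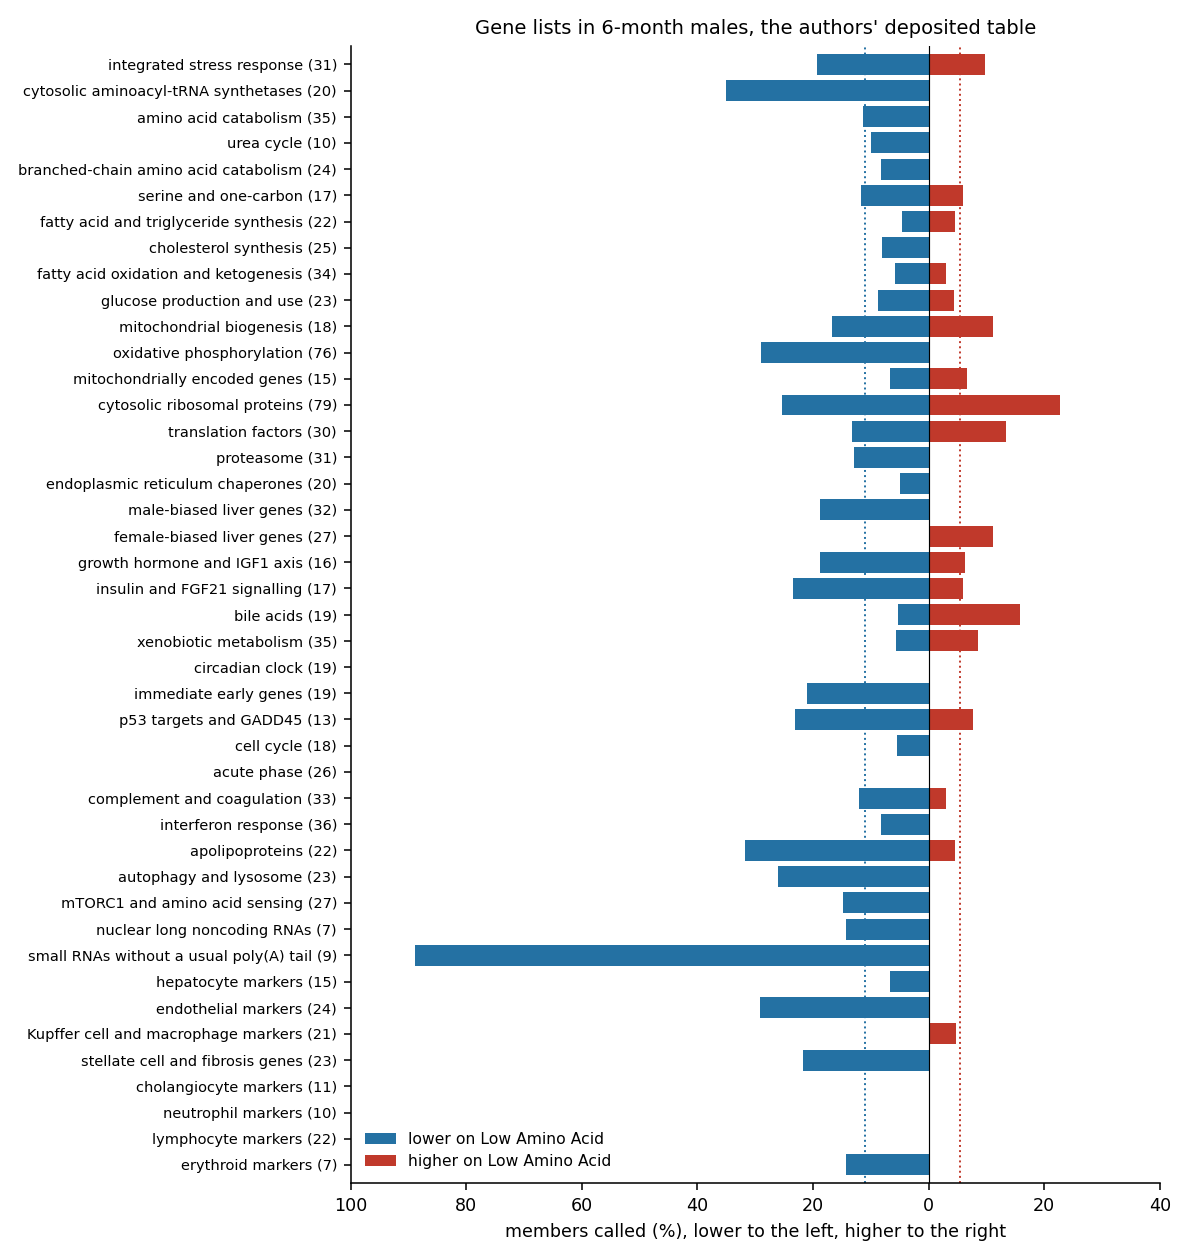
Percent of the members of each gene list called lower (bars to the left) and higher (bars to the right) on Low Amino Acid in 6-month males, from the authors' deposited table; the number in brackets is the members in the table and the dotted lines mark the 11.0% lower and 5.34% higher of all genes. Small RNAs without a usual poly(A) tail reach 8 of 9 lower, and ribosomal protein genes exceed the dotted line on both sides.

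Among sex-biased genes, the calls were lower for male-biased and higher for female-biased genes. Of 32 male-biased liver genes, 6 were lower and 0 higher, and the median log2 fold change was −0.88 with 32 of 32 values negative in the authors' deposited table. Of 27 female-biased genes, 3 were higher and 0 lower, with a median of 0.87 and 24 of 27 values positive in the authors' deposited table. These calls in the authors' deposited table stand against 11.0% lower and 5.34% higher of all genes, and most single members did not pass. Cyp4a12b, a male-specific fatty acid hydroxylase, had 5.26, 11.4 and 31.7 CPM in Low Amino Acid livers, against 23.9, 60 and 141 CPM in Control livers. The ranges overlapped. It fell by 2.61 in the authors' deposited table and by 2.39 in the GC-corrected fit (adjusted p = 0.00401). Gstp1, a glutathione transferase, had 235, 300 and 475 CPM in Low Amino Acid livers, against 527, 716 and 997 CPM in Control livers, with no overlap, and a log2 fold change of −1.17 in the authors' deposited table. C6, a terminal complement protein, fell by 1.36 in the authors' deposited table, and Ugt2b38 (−1.70), Cyp2d9 (−0.87) and Arsa (−0.69) were the other lower genes there. Cyp17a1, a steroid hydroxylase, had 9.44, 23.7 and 45.8 CPM in Low Amino Acid livers, against 1.57, 5.74 and 24.5 CPM in Control livers, a rise of 1.96 in the authors' deposited table. Atp6v0d2 (1.91) and Cyp2a22 (2.09) were the other higher genes in the authors' deposited table. In the GC-corrected fit 3 male-biased genes were lower and 2 female-biased genes higher, against 2.32% lower and 1.39% higher of all genes. These P450, Ugt and transferase families have near-identical copies, so single members are uncertain.

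The growth hormone axis held 1 higher and 3 lower genes among 16 in the authors' deposited table, against 5.34% and 11.0% of all genes. Igfals, the partner that keeps IGF1 in blood, had 23.5, 31.6 and 72.7 CPM in Low Amino Acid livers, against 59.8, 82.4 and 128 CPM in Control livers, a fall of 1.40 in the authors' deposited table. Stat5b fell by 0.40 and Igfbp4 by 0.45, and the prolactin receptor Prlr, a female-biased gene in rodent liver, rose by 0.92 in the authors' deposited table. None of these 4 passed in the GC-corrected fit. In the authors' deposited table Igf1 itself did not pass, at 0.20 (adjusted p = 0.452). Among 17 genes of insulin and FGF21 signalling, the leptin receptor Lepr had 103, 172 and 275 CPM in Low Amino Acid livers, against 9.83, 39.8 and 129 CPM in Control livers. It rose by 2.29 in the authors' deposited table (adjusted p = 0.0093), with 1.64 in the GC-corrected fit (adjusted p = 0.0932). Gcgr, the glucagon receptor, fell by 0.81, Fgfr4 by 0.52, Akt1 by 0.51 and Akt2 by 0.26 in the authors' deposited table.

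Bile acid and xenobiotic lists held calls in both directions, against 5.34% higher and 11.0% lower of all genes. Of 19 bile acid genes, 3 were higher, the uptake carrier Slc10a1 (0.38), Akr1d1 (0.76) and the carrier Slco1a4 (1.21), and Hsd3b7 (−0.54) was lower in the authors' deposited table. Cyp7a1, the controlling step in making bile acids, had 75.6, 175 and 257 CPM in Low Amino Acid livers, against 55.6, 136 and 308 CPM in Control livers, and in the authors' deposited table it did not pass (0.36, adjusted p = 0.676). Its sign turned to −0.13 with the GC correction. Of 35 xenobiotic genes, 3 were higher, among them the NRF2 target Nqo1 (0.98), and 2 lower, Cyp2f2 (−0.74) and Keap1 (−0.48), in the authors' deposited table. Nqo1 alone passed of both lists in the GC-corrected fit. Of 22 apolipoproteins and lipoprotein receptors, 7 were lower and 1 higher in the authors' deposited table. Apoe had 4230, 5560 and 9400 CPM in Low Amino Acid livers, against 8130, 8890 and 11700 CPM in Control livers, and fell by 0.82 in the authors' deposited table, with 0.13 (adjusted p = 0.702) in the GC-corrected fit. Apoc4 fell by 0.82 in the authors' deposited table and by 0.81 in the GC-corrected fit, with no overlap between the groups.

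The stress and immune lists ranged from no call to shares above the 11.0% lower of all genes. No gene of 19 in the circadian clock list and none of 26 acute phase genes was called by the authors' deposited table. Over all genes of the authors' deposited table, 5144 had an unadjusted p under 0.05. Of 19 immediate early genes, 4 were lower, Junb (−2.32), Jun (−1.57), Ier2 (−1.47) and Jund (−1.27), in the authors' deposited table. Ier2 and Jun remained lower in the GC-corrected fit. Of 13 p53 target genes Ccng1 was higher (0.47) and Gtse1, Bbc3 and Bax were lower in the authors' deposited table. With the GC correction Gtse1 stayed lower (−1.47), while Bax was called higher (0.53). In the authors' deposited table Cdkn1a, the p21 cell cycle inhibitor, was at 1.25 (adjusted p = 0.488), and in 24-month males at −0.22. Of 36 interferon response genes, 3 were lower, Irf7 (−1.45), Bst2 (−1.36) and Oasl1 (−1.28), with a median of −0.58 and 32 values negative, in the authors' deposited table. Of 33 complement and coagulation genes, 4 were lower, C6 among them, with F12 (−1.04), Proc (−0.58) and C8g (−0.58), and C1s1 (0.33) was higher in the authors' deposited table. Bst2 (−0.96) and C6 (−1.29) were the lower genes of these 2 lists in the GC-corrected fit.

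The lists of amino acid sensing and of autophagy held lower calls and no higher ones. Of 27 mTORC1 genes, 4 were lower and 0 higher in the authors' deposited table, against 11.0% and 5.34% of all genes. Akt1s1, an inhibitory subunit of mTORC1, had 5.13, 7.09 and 11.4 CPM in Low Amino Acid livers, against 11.6, 14.2 and 21.2 CPM in Control livers, and fell by 1.03 in the authors' deposited table. Lamtor4 (−0.63), Flcn (−0.49) and Rptor (−0.29) were the others in the authors' deposited table. Of 23 autophagy and lysosome genes, 6 were lower and 0 higher, among them the lysosomal master factor Tfeb (−0.86), Map1lc3a (−0.83), Atg2a (−0.82) and Atg9a (−0.57), in the authors' deposited table. With the GC correction 1 gene of each list was lower. Meg3, an imprinted long noncoding RNA, had 0.663, 1.87 and 2.54 CPM in Low Amino Acid livers, against 3.35, 7.57 and 24.2 CPM in Control livers, and fell by 2.32 in the authors' deposited table and by 2.41 in the GC-corrected fit.

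The tissue label held in both groups, and markers of other liver cells were called in part. The counts of calls below stand against 11.0% lower and 5.34% higher of all genes. The 15 hepatocyte markers summed to 101000 to 136000 CPM in Low Amino Acid livers and 86100 to 124000 CPM in Control livers, and Alb, the main plasma protein, was at 0.42 in the authors' deposited table (adjusted p = 0.224). Of 24 endothelial markers, 7 were lower and 0 higher in the authors' deposited table, with Stab1 at −0.81 and Tie1 at −0.94. Their summed level was 446 to 736 CPM in Low Amino Acid livers and 579 to 739 CPM in Control livers. Of 23 stellate cell and fibrosis genes, 5 were lower, all collagens such as Col1a1 (−1.39) and Col4a1 (−0.73), in the authors' deposited table, and the list summed to 562 to 866 CPM in Low Amino Acid livers and 680 to 964 CPM in Control livers. Of 21 Kupffer cell and macrophage markers, only the iron exporter Slc40a1 was called, at 0.39 in the authors' deposited table, and the list summed to 391 to 744 CPM in Low Amino Acid livers and 341 to 595 CPM in Control livers. The GC-corrected fit called 1 endothelial gene and none of the stellate or Kupffer cell genes. Fewer cells of a type and less RNA per cell cannot be told apart in bulk liver. None of 11 cholangiocyte, 10 neutrophil or 22 lymphocyte markers was called in the authors' deposited table, and 1 of 7 erythroid markers, Hba-a1, was lower at −1.32. Neutrophil markers summed to 4.06 to 84.5 CPM in Low Amino Acid livers and 3.88 to 46 CPM in Control livers, and their part in the results was not tested.

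The Low Isoleucine diet at the same age shares the Control livers with this comparison, so its values stand beside these as separate readings of the same reference. Its deposited fold changes were reproduced without Low Isoleucine replicates 1, 4 and 7, so its deposited values do not cover that whole group. The authors' deposited table had 1661 genes higher (9.35%) and 2086 lower (11.7%) on Low Isoleucine. Gm10800 was at 11.51, H2ac19 at −7.51, Uqcrq at −2.10, Bckdha at −1.41, Ppargc1a at 1.26 and Cyp4a12b at −3.19 on Low Isoleucine in the authors' deposited table. Atf4 was at −0.01 and Lepr at 0.96 there, and Srebf1, at −1.57 (adjusted p = 5.79e-04), was called lower on Low Isoleucine by the authors' deposited table. A direct test of Low Isoleucine against Low Amino Acid with edgeR, which needs no Control library, called 0 genes higher and 1 lower of 17149, with 2081 genes at an unadjusted p under 0.05. That test included the 3 Low Isoleucine libraries with a Control-like repeat family, replicates 1, 4 and 7. In these 3 libraries Uqcrq had 34.5, 53.3 and 47.4 CPM, against 7.88 to 17.2 CPM in the other Low Isoleucine libraries. H2ac19 had 2.51, 2.47 and 5.14 CPM in them, against 0 to 0.0685 CPM in the others.

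The estimated effects at 6 months in males differed from those of females of the same age. The authors' deposited table for 6-month females called 1 gene higher (0.00582%) and 1 lower (0.00582%) of 17192. The difference of the diet effects, males minus females, was tested per gene with standard errors recovered from the authors' deposited tables. It passed for 401 genes with a higher value in males (2.36%) and 1168 with a lower one (6.86%) of 17023 in both tables. The smallest p belonged to Eva1b, a difference of −2.46 ± 0.376 (SE), Gm10800 (9.44 ± 1.45), Thap7 (−1.58 ± 0.252), Znhit2 (−2.10 ± 0.33) and Bola1 (−1.80 ± 0.288), each with an adjusted p of 6.12e-05. Thap7, a chromatin-binding repressor, had a log2 fold change of −1.47 in males and 0.11 in females in the authors' deposited tables. For Ppargc1a the difference was 1.43 ± 0.376 (adjusted p = 0.00833), from 1.29 in males and −0.14 in females. The differences for Fgf21 (−1.50, adjusted p = 0.386), Asns (0.66, 0.813) and Igf1 (0.19, 0.664) did not pass. Every 6-month male Control library had the low repeat level. Sex, diet and this property of the libraries therefore cannot be told apart in these differences.

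The response also differed from that of males killed at 24 months, whose diet began at 6 months of age. The authors' deposited table called 7 genes higher (0.0394%) and 3 lower (0.0169%) in those older males. The difference of effects, 6 months minus 24 months, passed for 425 genes with a higher value at 6 months (2.39%) and 1028 with a lower one (5.79%) of 17757. With edgeR's interaction term on counts, 98 and 313 genes passed. The 5 smallest p-values all belonged to the repeat family, led by Gm10800 (11.99 ± 1.26, SE, adjusted p = 2.53e-07), with ENSMUSG00000097312 at 8.27 ± 0.878, Gm10801 at 11.54 ± 1.35, ENSMUSG00000095280 at 8.53 ± 1.16 and Gm10718 at 8.68 ± 1.24. Gm10800 had 11.1, 124 and 913 CPM in 24-month Low Amino Acid livers, against 41.2, 180 and 329 CPM in 24-month Control livers, and both ranges lay above every 6-month Control library. Its deposited 24-month fold change of −1.11 was reproduced without 24-month Low Amino Acid replicates 4 and 5, the highest at 913 and 541 CPM. Ppargc1a differed by 1.40 ± 0.44 (adjusted p = 0.0419). Fgf21 (−2.71, adjusted p = 0.137) and Cyp7a1 (1.78, adjusted p = 0.121) did not pass. The 6-month Control libraries are also the only male group whose 8 libraries all had the low repeat level, so age, diet and this property of the libraries cannot be told apart in these differences.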

How the data were processed

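Livers were profiled by stranded RNA sequencing with poly(A) selection, with the lanes of a sample merged, per the labels' protocols. The submitters' processing notes name edgeR, limma, R 3.4.3 and GRCm38.p5, and say nothing of roles, so the aligner and the annotation behind the counts stay unknown here. The gene table holds estimated counts (expected counts of RSEM, going by its name), not normalized, as the authors deposited them. The table of male comparisons holds log2 fold changes, p-values and adjusted p-values, with an F score per gene, as the authors deposited them; the model behind it is not stated in the labels or headers. Positions, gene types and exon lengths come from GENCODE M21, which matched 17714 of 17757 genes. Symbols are those of the authors' comparison table, or of the gene lists for list members.

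The male columns of the gene table do not line up with its gene names. Its upper 17275 lines follow the order of the male comparison table with 482 genes skipped. Lines were assigned to genes by closeness of level within that order, so a high correlation of levels was built in. It was 0.984 over the matched lines, against 0.12 with the names as printed. Fold changes from the matched counts lay within 0.02 of the deposited ones for all 5 male contrasts in 17153 lines, and only these were used. A voom fit with TMM on 39 of the 45 male libraries came close to the deposited fold changes of this comparison (median absolute difference 0.0013, r = 0.987 across genes). The other fits were not compared with them in this way. Low Amino Acid replicate 7 was not among the 39. This matching was made after the deposited files were seen, so the deposited table stays the source of the calls and the count fits are added alternatives.

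Estimated counts were rounded and fitted with edgeR 4.0.16 (quasi-likelihood, TMM, a mean per group), with voom of limma 3.58.1 and DESeq2 1.42.0 under R 4.3.3 as alternatives. The GC-corrected fit added an offset per library and gene, a lowess curve (span 0.3) of log2 CPM (prior count 2) on transcript GC. Standard errors of differences between contrasts came from the deposited fold change and p, with 36.3 degrees of freedom for males and 39.6 for females, recovered from the deposited F score. The edgeR fit, the GC-corrected fit and the test of differences were also run on simulated data. The simulated counts held no GC difference between libraries and no tie between libraries of a shared number. They cannot show how the GC correction behaves where GC moves with the diet. Genes were named by a rule on size, p and list membership, to which genes named in the study's questions were added. A gene that the rule names is not reported here. The members and lists were chosen with earlier results of these data known. Lists are described by counts and medians, with no test over a list. CPM intervals are not given because the spread between libraries exceeds counting error at totals of 23.4 to 39.7 M (1e+06).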

Additional observations from a re-analysis of the deposited data

Results flagged for a closer look

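Among 60 gene and group pairs examined, 6 had a library far from the others of its group. The cut-off gives about 1 in 20 by chance only for independent values with a normal spread. The pairs include several genes of the repeat family, which are not independent, so the 6 are not set against that rate. All 6 were in Control livers of 6 months: replicate 2 was high in Gm10800 (1.48 CPM), replicate 6 in Gm10801 (0.863 CPM), replicate 4 in ENSMUSG00000095280 (0.811 CPM) and Asns (4.94 CPM), and replicate 5 in Elob (29 CPM) and Fgf21 (46.9 CPM). The first 3 values remained far under those of every Low Amino Acid library.

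The effect of Low Amino Acid differed between 6-month males and 6-month females, on the log2 scale as males minus females, by −2.46 for Eva1b, 9.44 for Gm10800, −1.58 for Thap7, −2.10 for Znhit2, −1.80 for Bola1 and 1.43 for Ppargc1a. It differed between 6-month and 24-month males, as 6 minus 24 months, by 11.99 for Gm10800, 8.27 for ENSMUSG00000097312, 11.54 for Gm10801, 8.53 for ENSMUSG00000095280, 8.68 for Gm10718 and 1.40 for Ppargc1a. Each difference was tested directly, but the low repeat level of the 6-month male Control libraries cannot be told apart from sex, age or diet in them.

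The summed level of the 12 repeat-family genes was high in livers outside the comparison as well. The lowest library of 24-month Control males had 98.3 CPM, against at most 4.95 CPM in 6-month Control males.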

How the results depend on the processing

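Of the 948 higher genes, 348 remained at an adjusted p under 0.01, 160 at a fold of at least 1 log2 unit and 34 under Holm adjustment, and 1605 passed under 0.1. Counts gave 601 higher genes with edgeR on all 45 male libraries, 219 with library totals in place of TMM and 237 with the GC correction. Counts summed over libraries that share a title number gave 178 higher and 841 lower, and leaving out both Low Amino Acid libraries that share the number of replicate 7 gave 792 and 2176. Of the 1954 lower genes, 363 had a fold of at least 1 log2 unit and 369 passed Holm; counts gave 710 without TMM and 397 with the GC correction. List members called numbered 194 in the deposited table, 121 of them at an adjusted p under 0.01; edgeR called 172 without and 67 with the GC correction. At an adjusted p under 0.1, the differences with a higher value in 6-month males numbered 815 against females and 779 against 24-month males; edgeR's interaction term gave 98 higher and 313 lower. Leaving out each of the 15 libraries in turn gave 343 to 698 higher and 1311 to 1989 lower genes; without Low Amino Acid replicate 6 or 5 the higher count was 343 or 379, against 601. DESeq2 gave 860 and 1861. TMM moved the median of all genes by 0.08 against library totals. Signs turned for Srebf1 and Fasn (0.25 each) and Cyp7a1 (−0.13) with the GC correction, and for Cyp7a1 without single libraries (−0.08 to 0.29); the cause was not tested. No paired analysis was possible because the groups share no number in the titles. Leaving out libraries could not be done on the deposited table itself. Genes under 1 CPM, Dpp10 among them, rest on few reads.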
